A study of Saccharomyces cerevisiae with 6 samples.

Results

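The 33 genes described here encode the sulphate assimilation, methionine, cysteine and S-adenosylmethionine pathways of budding yeast and their regulators. They were taken from a list of names, each with 1 probe set, out of 5449 genes measured on Affymetrix arrays. Of the 6 arrays, 3 were labelled wild type and 3 were labelled as a deletion of YPR045C, the gene of Thp3, which is known to act with Csn12 in coupling transcription to mRNA maturation. All 6 came from the haploid laboratory strain BY4741, grown exponentially in rich medium (YPD). Both groups therefore share the marker mutations of that strain, in HIS3, LEU2, URA3 and MET17. The list was said to hold no gene of chromosome X, but the gene table of the R64 assembly places MET3 and STR2 there, so counts are given with and without them. Nothing in the labels ties the 3 arrays of a group to separate cultures. P-values therefore reflect the spread among these arrays only, and it may be technical.

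Yeast takes up sulphate, activates it with ATP, reduces it to sulphide and joins the sulphide to a homoserine derivative to make homocysteine. Homocysteine is methylated to methionine, converted to S-adenosylmethionine, the cell's main methyl donor, or turned into cysteine by transsulphuration. The activator Met4, brought to promoters by Cbf1, Met31 and Met32, drives the genes of the pathway and is restrained by the ubiquitin ligase subunit Met30 when sulphur amino acids are plentiful. BY4741 lacks MET17, the enzyme that joins sulphide to O-acetylhomoserine, and so depends on methionine or another organic sulphur source in the medium.

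The group labels were first set against the targeted gene. THP3 (YPR045C, chromosome XVI) stood at deposited intensities of 732.51, 677.63 and 462.77 in the wild-type-labelled arrays and 949.98, 894.03 and 528.86 in the deletion-labelled arrays. The groups overlapped, and THP3 was not lower under the deletion label (log2 difference 0.33 ± 0.25 SE, limma adjusted p = 0.39). This goes against the label, although no source used here says whether the probes lie in the deleted part. Groups are therefore named by their labels, and every direction rests on them. Genes of chromosome X were lower as a group in the deletion-labelled arrays, with a median log2 difference of -0.79 over 316 genes, against 0.04 over the 5133 other genes. The arrays measured RNA, and the copy number of chromosome X in either group was not tested. In these bulk cultures, fewer cells that express a gene and less RNA per cell cannot be told apart.

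In the deletion-labelled arrays, 6 of the 33 genes were higher, 2 were lower and 25 did not pass the threshold, an adjusted p of 0.05 over all 5449 genes. The 6 higher genes were the methionine synthase MET6, the methionine permeases MUP1 and MUP3, the S-adenosylmethionine synthetase SAM2, the adenylylsulphate kinase MET14 and the DNA-binding regulator MET31. Both lower genes, the ATP sulphurylase MET3 and the cystathionine gamma-synthase STR2, were those on chromosome X. The share called was 24.2%, where 21.7% of all genes were called, 11.6% higher and 10.2% lower. Outside chromosome X, 6 of 31 were higher (19.4%) and 0 lower by limma, where 17.3% of genes were called, 12.3% higher and 5.05% lower. At an unadjusted p under 0.05, 11 of the 31 were higher and 1 lower, where the shares of all genes outside the chromosome were 22.6% and 9.45%. The share of these genes called in either direction was thus near the background. Outside chromosome X the share called higher, 19.4%, lay above its background of 12.3%, and the share called lower lay below the 5.05%. The list was not tested as a group. In this fit no member differed by 2-fold or more, although with median centring STR2 did (-1.02). The median log2 difference was 0.05 over the 33 genes, 0.06 over the 31 and 0.03 over all genes. The groups did not overlap for 15 of the 33 genes, where the share over all genes was 41.2%, and for 13 of the 31, where it was 37.9%.

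**Figure D1:**
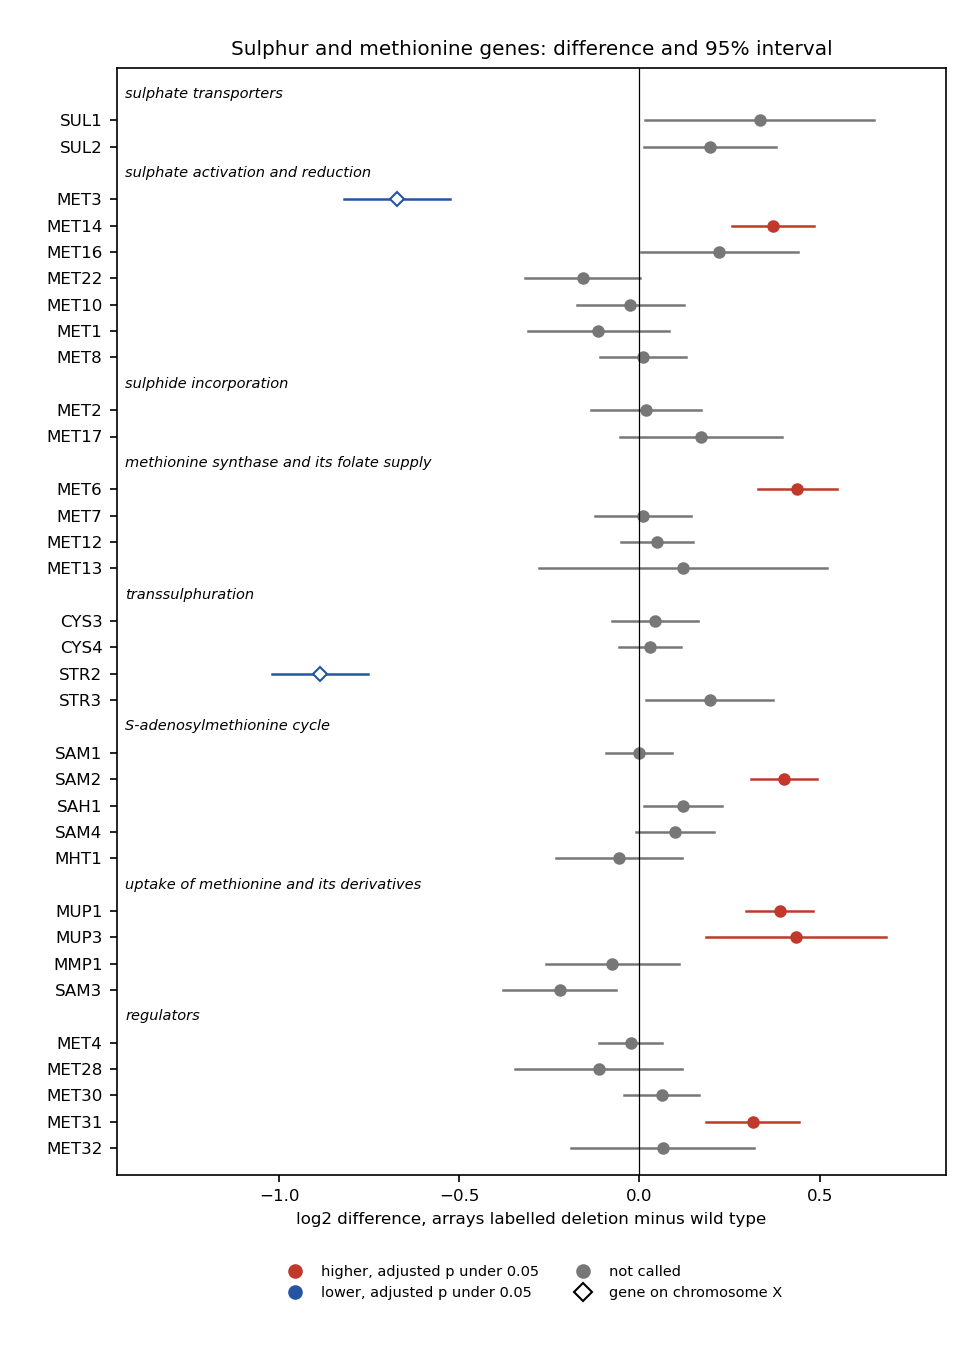
Log2 difference of each of the 33 genes (arrays labelled deletion minus those labelled wild type, 3 arrays each), ordered by role; lines are 95% intervals of the limma fit. The 6 genes called higher lie between 0.31 and 0.44, and the diamonds of the chromosome X genes MET3 and STR2 stand apart at -0.67 and -0.89.

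Of the sulphate permeases, SUL1 lay below background and SUL2 above it. Background was read from 1746 annotated probe sets on the same arrays that matched no S. cerevisiae gene identifier. They were taken as fission yeast probe sets, without a check of species. The 95th percentile of their mean levels served as its limit, at 6.48 on the log2(normalized intensity + 16) scale on which all levels and differences below are given. SUL1, a high-affinity sulphate permease, lay at 5.86, 5.64 and 5.61 in the wild-type-labelled arrays and 5.79, 6.29 and 6.03 in the deletion-labelled arrays, below that limit in all 6. SUL2, the other sulphate permease, stood at 7.91, 7.97 and 8.15 against 8.10, 8.25 and 8.26, a level 2.87-fold and 3.29-fold over the limit. The groups overlapped for both genes, and neither passed (SUL1 difference 0.33 ± 0.13 SE, SUL2 0.20 ± 0.08, limma adjusted p = 0.12 for each). Other settings changed this. SUL1 was called higher without deletion array 1 (adjusted p = 0.045), and SUL2 without wild-type array 3 (adjusted p = 0.045). SUL2 was also called with the arrays numbered 3 as a term in the fit (adjusted p = 0.048) or the replicate number as a block (0.049).

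Of the genes for sulphate activation, MET3 lies on chromosome X, where 93.4% of genes were called lower, and MET14 lies on chromosome XI. Their differences had opposite signs. MET3, which makes adenylylsulphate, had deposited intensities of 862.61, 816.68 and 908.62 in the wild-type-labelled arrays and 511.75, 522.90 and 550.80 in the deletion-labelled arrays. Every array labelled deletion lay below every array labelled wild type. MET3 fell by 0.67 ± 0.06 on the log2 scale, 1.59-fold (adjusted p = 0.00034). MET14, the kinase of the next step, stood at 1411, 1360 and 1445 and then at 1699, 1797 and 1782, with no overlap. It rose 1.29-fold (0.37 ± 0.05, adjusted p = 0.0019), although with each array centred on its median it was not called (adjusted p = 0.081). MET16, which reduces the activated sulphate, was higher in every array labelled deletion (8.83, 8.998 and 9.09 against 9.12, 9.12 and 9.34) but did not pass (0.22 ± 0.09, adjusted p = 0.13). With the arrays numbered 3 as a term it was called (adjusted p = 0.029), as it was with the replicate number as a block (0.035).

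The other members of the reductive branch, MET10, MET1, MET8 and MET22, were not called in this fit. MET10, the alpha subunit of sulphite reductase, stood at 9.51, 9.67 and 9.70 and at 9.59, 9.66 and 9.56, with overlapping groups and a difference of -0.03 (95% interval -0.17 to 0.12). MET1 and MET8, which make the sirohaem cofactor of that enzyme, differed by -0.11 and 0.01. MET22, the nucleotidase that removes the by-product of sulphate reduction, differed by -0.16 ± 0.07 and missed the threshold (adjusted p = 0.14). It was called lower without wild-type array 1 (adjusted p = 0.045) and with median centring (adjusted p = 0.023). The beta subunit of sulphite reductase, MET5, is not a member and lies on chromosome X. It had intensities of 1976, 1949 and 2024 against 1057, 1159 and 1057, and fell by 0.81 ± 0.05 (adjusted p = 5.5e-05). The 2 subunits of that enzyme, MET10 and MET5, thus had mRNA differences of -0.03 and -0.81.

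The genes mutated in BY4741 were set against the background limit. MET17, the O-acetylhomoserine sulphhydrylase, had deposited intensities of 43.05, 58.49 and 46.92 in the wild-type-labelled arrays and 55.44, 55.64 and 57.47 in the deletion-labelled arrays. On the log2 scale it lay at 6.02 ± 0.19 and 6.19 ± 0.02 (SD, n = 3), below the background limit in both groups, so its difference of 0.17 has no reading as a change of expression. Without wild-type array 2, MET17 passed the threshold (adjusted p = 0.010) while still below the limit. Of the other marker genes of the strain, URA3 was also below the limit (5.55 ± 0.11 and 5.47 ± 0.06). LEU2, which the strain also lacks, stood above it, at 8.79 ± 0.17 and 8.52 ± 0.15, 4.96-fold and 4.11-fold over the limit. If the strain is as labelled, a signal over the limit is thus no proof that a gene is present. Whether these cells carried LEU2 was not tested. HIS3, of which the strain is known to carry a partial deletion, stood at 11.55 ± 0.08 and 11.60 ± 0.04. None of these markers was called. MET2, which makes the homoserine derivative that Met17 would use, was measured 2.64-fold over the limit in the wild-type-labelled arrays and differed by 0.02 (95% interval -0.13 to 0.17).

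MET6, the cobalamin-independent methionine synthase, rose by 0.44, close to the 0.43 of MUP3, and which of them was higher changed with the setting. Its deposited intensity was 5379, 4772 and 5022 in the wild-type-labelled arrays and 6753, 6699 and 6897 in the deletion-labelled arrays. The groups were clearly apart, and MET6 rose 1.35-fold (0.44 ± 0.05, adjusted p = 0.00064). It remained called in all 19 alternative settings, with differences of 0.33 to 0.47. The folate enzymes that supply its methyl group did not pass. MET7, which lengthens the glutamate tail of folates, differed by 0.01 (95% interval -0.12 to 0.14). The methylenetetrahydrofolate reductase MET12 differed by 0.05 (-0.05 to 0.15). The other reductase, MET13, varied most of the 33 genes among the wild-type-labelled arrays, at 8.99, 8.43 and 8.41. It stood at 8.82, 8.83 and 8.54 in the deletion-labelled arrays, and its difference of 0.12 had an interval of -0.28 to 0.52.

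**Figure D2:**
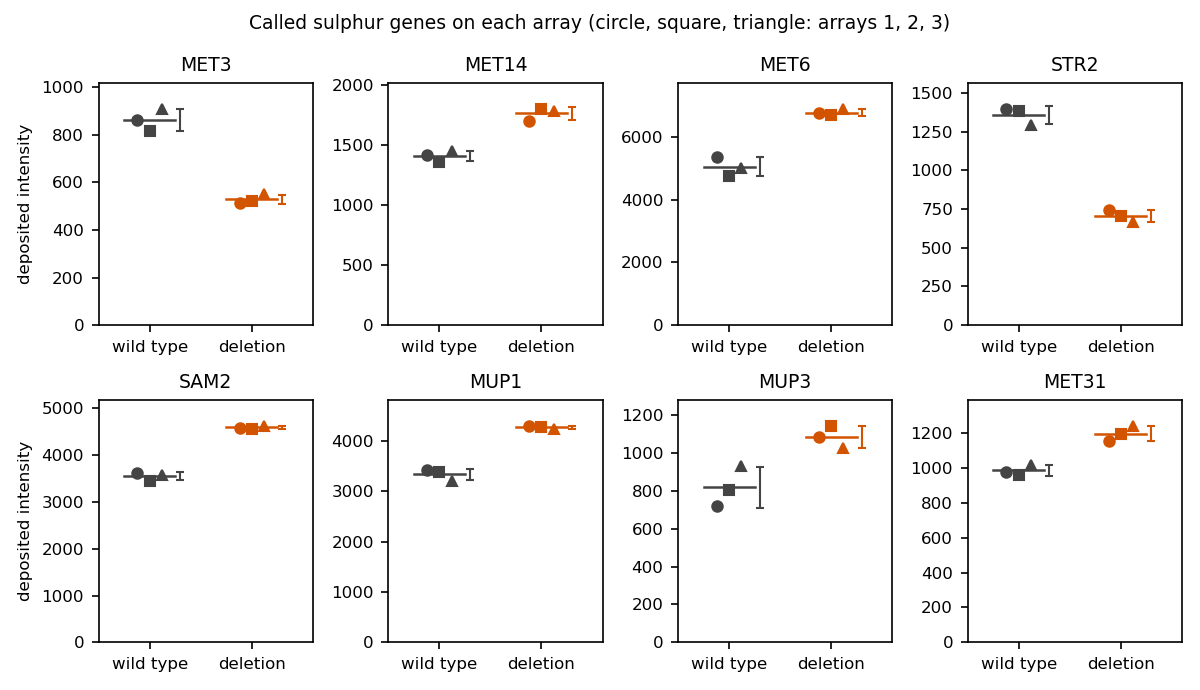
Deposited intensity (linear scale, from 0) of the 8 called genes on each array; horizontal lines are group means and bars the SD of 3 arrays. In all 8 panels the groups do not overlap, the wild-type-labelled arrays of MUP3 run from 717.66 to 929.15, and MET3 and STR2 are the genes that are lower under the deletion label.

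In transsulphuration, which links homocysteine and cysteine, the call was that of the chromosome X gene. STR2, which makes cystathionine from cysteine, stood at 1397, 1385 and 1292 in the wild-type-labelled arrays and 744.09, 706.38 and 665.06 in the deletion-labelled arrays. It fell by 0.89 ± 0.06, 1.85-fold (adjusted p = 6.2e-05), the largest difference of the 33 genes in either direction. STR3, which cleaves cystathionine to homocysteine in the same direction, was only 1.16-fold over the background limit in the wild-type-labelled arrays and differed by 0.19 ± 0.07 (adjusted p = 0.11). The genes of the reverse route were bright. CYS3, the cystathionine gamma-lyase, stood at 13.53, 13.55 and 13.65 and at 13.58, 13.62 and 13.66, a difference of 0.04 (95% interval -0.08 to 0.16). CYS4, the cystathionine beta-synthase, differed by 0.03 (-0.06 to 0.12). Its groups did not overlap, and with an unmoderated linear model it was called (adjusted p = 0.043), at a 1.02-fold difference.

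Of the enzymes around S-adenosylmethionine, SAM2 rose. SAM2, one of the synthetases, had intensities of 3626, 3450 and 3572 against 4584, 4563 and 4614 and rose 1.32-fold (0.40 ± 0.04, adjusted p = 0.00042). SAM1, the closely similar second synthetase, stood at 13.44, 13.43 and 13.47 in the wild-type-labelled arrays and 13.44, 13.43 and 13.47 in the deletion-labelled arrays, a difference of -0.001 (95% interval -0.09 to 0.09). The level of SAM1 minus that of SAM2 on the same array was 1.67 ± 0.01 (SD, n = 3) under the wild-type label and 1.27 ± 0.01 under the deletion label. The levels come from different probe sets, so only the change is read. That change of -0.40 gave an exact two-sided permutation p of 0.1, the smallest that 3 against 3 arrays allow. Probe sets of close relatives can share signal, and how far these did is not known here.

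SAH1, which splits S-adenosylhomocysteine, stood at 13.80, 13.81 and 13.91 and at 13.96, 13.96 and 13.97, and differed by 0.12 ± 0.05 (adjusted p = 0.11), with every array labelled deletion above every array labelled wild type. With a level-dependent, robust spread model it was called (adjusted p = 0.014). SAM4, the homocysteine methyltransferase that uses S-adenosylmethionine, differed by 0.10 (95% interval -0.01 to 0.21). MHT1, the one that uses S-methylmethionine, differed by -0.06 (-0.23 to 0.12).

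Both methionine permeases were higher under the deletion label. MUP1, the high-affinity methionine permease, had intensities of 3414, 3388 and 3197 and then 4291, 4282 and 4235. The arrays labelled deletion lay close together, above all those labelled wild type, and MUP1 rose 1.31-fold (0.39 ± 0.04, adjusted p = 0.00053). MUP3, a low-affinity relative, stood at 717.66, 803.99 and 929.15 against 1082, 1140 and 1026 and rose 1.35-fold (0.43 ± 0.10, adjusted p = 0.028). This call was less firm. It was lost without wild-type array 2 (adjusted p = 0.082), deletion array 1 (0.078), deletion array 2 (0.084) or deletion array 3 (0.055), without chromosome X genes (0.053) and with the unmoderated model (0.11). It held without wild-type arrays 1 or 3 and without both arrays numbered 3.

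The permeases of methionine derivatives did not pass. MMP1, which takes up S-methylmethionine, stood at 9.94, 10.03 and 10.06 and at 10.01, 10.03 and 9.77, with overlapping groups and a difference of -0.08 ± 0.08. SAM3, which takes up S-adenosylmethionine, stood at 11.34, 11.21 and 11.42 and at 11.18, 11.05 and 11.09. All 3 arrays labelled deletion were lower, and the difference of -0.22 ± 0.07 just missed the threshold (adjusted p = 0.056). SAM3 was called lower in 8 of 19 alternative settings, among them the deposited values (adjusted p = 0.026), the replicate block (0.038), the fit without wild-type array 2 (0.030) and the fit without chromosome X genes (0.036).

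Among the regulators, MET31 passed the threshold and the other 4 did not. MET31, a zinc-finger protein that binds promoters of the pathway, had intensities of 976.17, 959.55 and 1018 against 1155, 1193 and 1238 and rose 1.24-fold (0.31 ± 0.05, adjusted p = 0.0068). With median centring it was not called (adjusted p = 0.19). Its relative MET32 stood at 7.45, 7.41 and 7.72 and at 7.42, 7.72 and 7.63, a difference of 0.06 (95% interval -0.19 to 0.32). MET4, the activator itself, gave nearly equal values, 10.71, 10.69 and 10.73 against 10.68, 10.68 and 10.68, with a difference of -0.02 (-0.11 to 0.06). MET28, the basic leucine zipper cofactor of Met4, differed by -0.11 (-0.35 to 0.12), and MET30, the F-box protein that targets Met4, by 0.06 (-0.04 to 0.17).

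Pairs of related genes were set side by side within arrays, 8 in all. The within-array difference did not overlap between the groups for 4 pairs, SAM1 and SAM2, MET31 and MET32, SAM4 and MHT1, and STR2 and STR3. How often other gene pairs fail to overlap was not computed. For single genes the groups did not overlap in 41.2% of all genes, so lack of overlap was common in these data. Each of these 4 pairs gave an exact permutation p of 0.1, and 0.2 after adjustment over the 8 pairs, so none could pass. The change was -0.40 for SAM1 relative to SAM2, 0.25 for MET31 relative to MET32, 0.16 for SAM4 relative to MHT1 and -1.08 for STR2 relative to STR3. The last of these pairs a chromosome X gene with one elsewhere. For MUP1 relative to MUP3 the change was -0.05, for SUL1 relative to SUL2 0.14, for MET12 relative to MET13 -0.07 and for MMP1 relative to SAM3 0.15, and in these 4 pairs the groups overlapped.

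**Figure D3:**
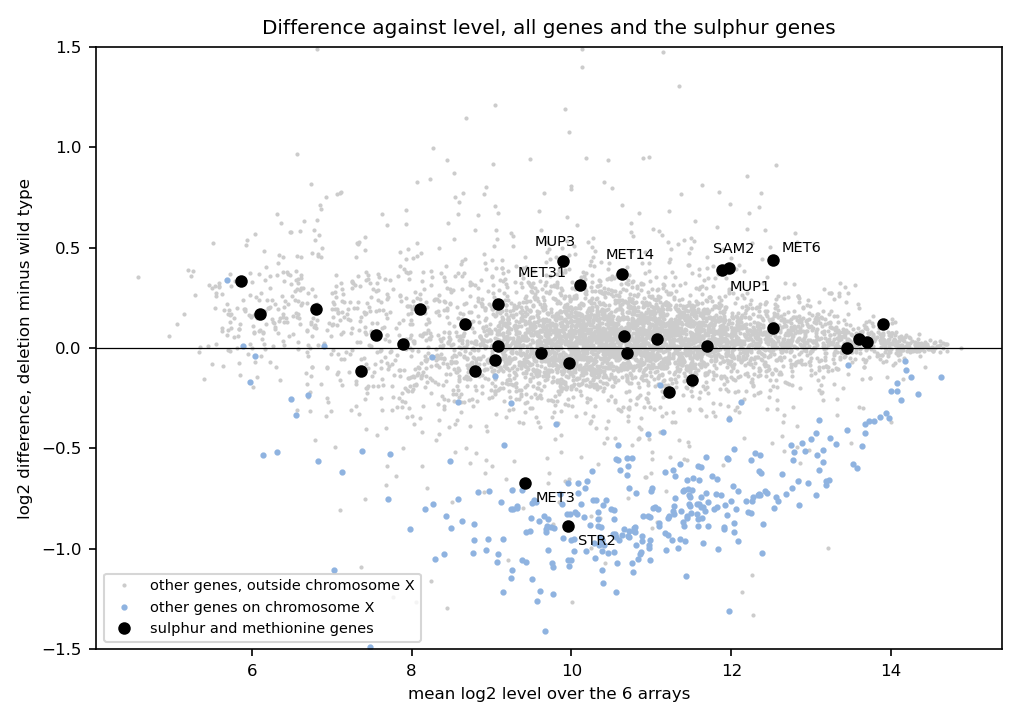
Log2 difference (arrays labelled deletion minus wild type) against the mean log2 level over the 6 arrays for all genes; black points are the 33 sulphur and methionine genes, blue points the other chromosome X genes, and 13 genes lie outside the vertical axis. MET3 and STR2 lie within the band of chromosome X genes, which comes closer to 0 at the highest levels.

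The 2 chromosome X members were set against the other genes of that chromosome. The median difference there was -0.79, so MET3 lay 0.11 above it and STR2 0.10 below it. Of the chromosome X genes 68.7% had a lower value than MET3 and 31.3% a lower value than STR2. Of genes on that chromosome 93.4% were called lower. The falls of MET3 and STR2 were thus of the size seen across their chromosome, and no member on another chromosome was called lower in the same fit.

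The differences of chromosome X genes were also read by mean log2 level. Their median was -0.71 for the 37 genes below 9, -0.89 for the 53 from 9 to 10 and -0.90 for the 77 from 10 to 11. It was -0.79 for the 75 from 11 to 12, -0.72 for the 41 from 12 to 13 and -0.38 for the 33 at 13 or above. The medians of the lower 5 bands thus lay close together and that of the highest band nearer to 0. SAM1, CYS3, CYS4 and SAH1 stand in that highest band, where the median absolute difference of genes outside chromosome X was 0.04, against 0.10 at levels from 10 to 11. The part of signal level in the small differences of these 4 genes was not tested.

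A wider list of 45 genes around the pathway was read from the same fit. Of these, 8 were higher, 3 lower and 34 not called, 24.4% against the 21.7% of all genes. The 3 lower genes, the glutathione transporter OPT1 (-0.90 ± 0.06), the methionine salvage enzyme MDE1 (-0.73 ± 0.10) and the adenosine kinase ADO1 (-0.38 ± 0.05), all lie on chromosome X. Outside that chromosome 8 of 42 were higher (19%) and 0 lower by limma, against 12.3% and 5.05% of all genes there. At an unadjusted p under 0.05, 13 were higher and 0 lower, against 22.6% and 9.45%. Median centring gave 3 higher and 5 lower of the 45, and without both arrays numbered 3 there were 4 higher and 3 lower.

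DFR1, the dihydrofolate reductase, had the largest rise of this list in the fit. Its intensities were 1449, 1392 and 1560 in the wild-type-labelled arrays and 2177, 2231 and 2399 in the deletion-labelled arrays, with no overlap, and it rose 1.59-fold (0.67 ± 0.07, adjusted p = 0.00049). SSU1, the sulphite exporter, rose 1.35-fold (0.43 ± 0.05, adjusted p = 0.00078). SEO1, a putative permease, rose by 0.45 ± 0.08 (adjusted p = 0.0066) but lay below the background limit in the wild-type-labelled arrays and 1.10-fold over it in the others. ADI1, a dioxygenase of methionine salvage, rose by 0.35 ± 0.06, and the serine synthesis genes SER33 and SER2 by 0.24 ± 0.05 and 0.21 ± 0.04. The folate dehydrogenase genes MTD1 and MIS1 rose by 0.21 ± 0.05 and 0.14 ± 0.04, closer to the threshold (limma adjusted p = 0.030 and 0.044).

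Role by role, the folate and one-carbon group had 3 of 10 genes higher and 1 lower, and the homoserine and serine group 2 of 6 higher. The group of other sulphur transport and release had 2 of 6 higher (SSU1 and the dim SEO1) and 1 lower (OPT1, on chromosome X). The methionine salvage and polyamine group had 1 of 10 higher and 1 lower. Of the 8 glutathione, thioredoxin and methionine sulphoxide genes limma called 0, with 1 at an unadjusted p under 0.05. Of the 5 genes of the Met4 ubiquitin ligase and general amino acid control, CDC34, SKP1, CDC53, HRT1 and GCN4, it called 0, with 0 at an unadjusted p under 0.05. Their differences lay between -0.08 and 0.03. Over all genes 11.6% were higher and 10.2% lower, and no role was tested as a group.

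**Figure D4:**
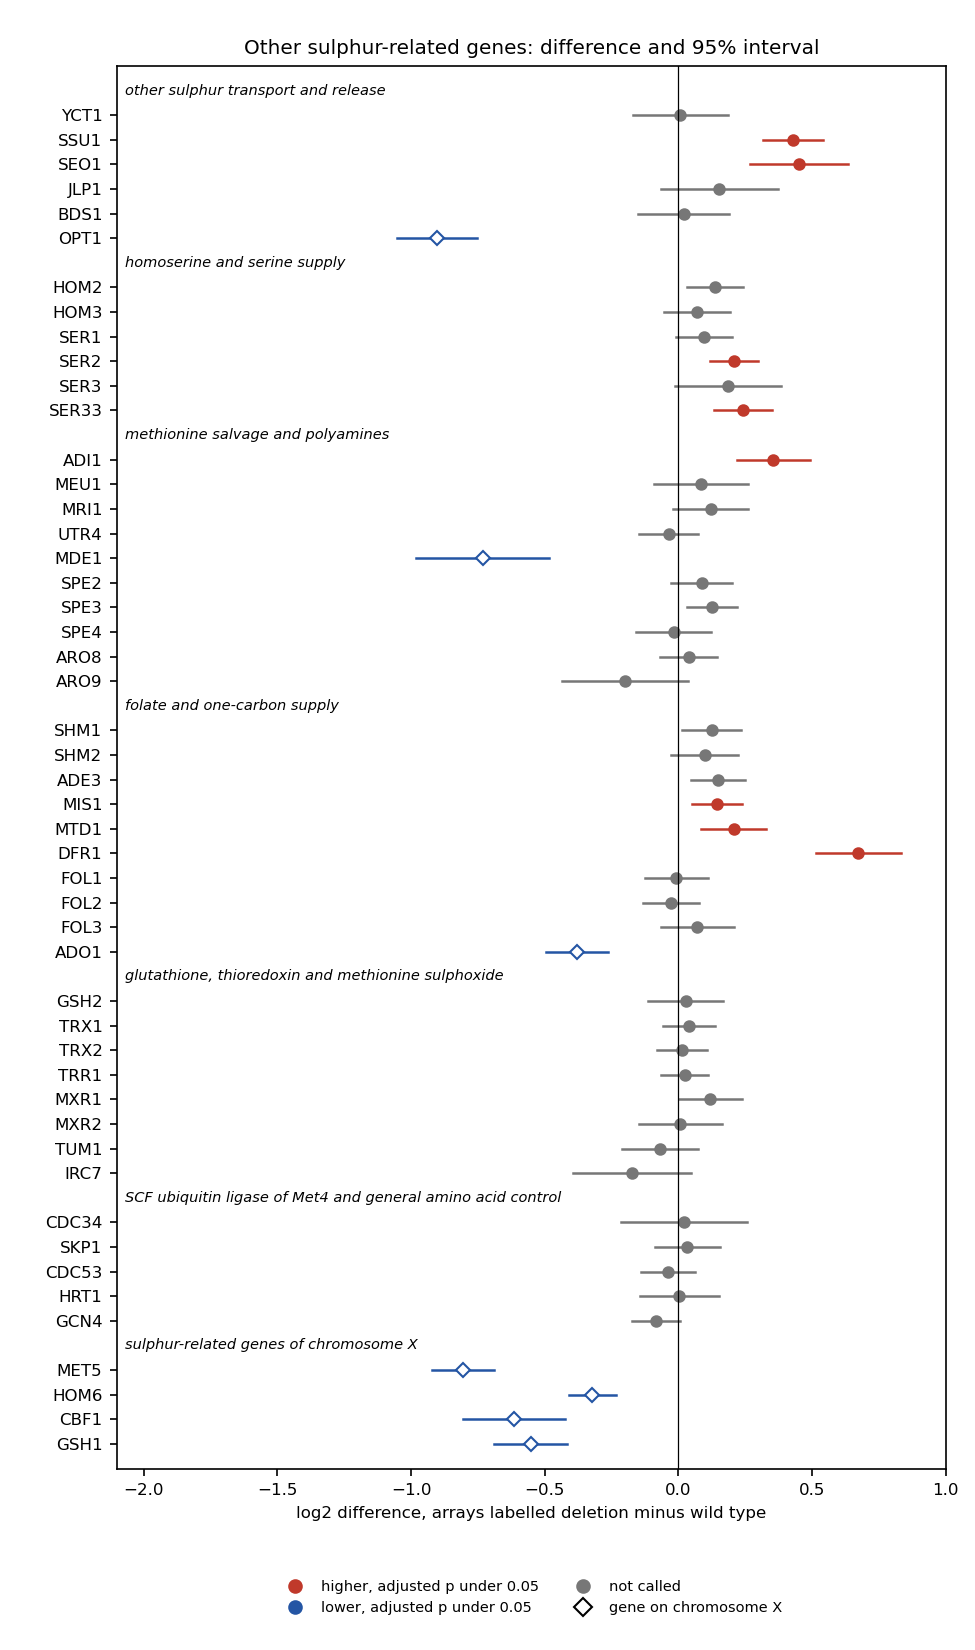
Log2 difference (arrays labelled deletion minus wild type) with 95% intervals for 45 further genes around sulphur metabolism and, at the bottom, 4 sulphur-related genes of chromosome X. All 7 diamonds, the chromosome X genes of both lists, lie between -0.90 and -0.32, and DFR1 is the highest point at 0.67.

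A further 4 genes of the pathway were listed because they lie on chromosome X, and all 4 were called lower. Besides MET5 they were CBF1, which recruits Met4 to DNA (-0.62 ± 0.08, adjusted p = 0.0019), GSH1, the first enzyme of glutathione synthesis (-0.55 ± 0.06, adjusted p = 0.00061), and HOM6, the homoserine dehydrogenase (-0.32 ± 0.04, adjusted p = 0.0010). HOM6 and ADO1, at 14.09 and 13.86 in the wild-type-labelled arrays, lay in the highest level band and had the smallest differences of the listed genes on this chromosome. With MET3, STR2, OPT1, MDE1 and ADO1, all 9 listed sulphur genes of chromosome X were lower under the deletion label, as were 93.4% of all genes of that chromosome, so this count is not particular to sulphur genes. Of the 73 listed genes elsewhere 14 were higher (19.2%) and 0 lower by limma, against 12.3% and 5.05% of all genes outside the chromosome. At an unadjusted p under 0.05, 24 were higher and 1 lower, against 22.6% and 9.45%. This split depended on the setting. SAM3 was called lower in the fit without chromosome X genes, and both SAM3 and MET22 were with median centring.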

How the data were processed

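Per the labels, total RNA was labelled with biotin as cRNA and hybridised to Affymetrix arrays. The deposited values are linear intensities, 1 per probe set on each of the 6 arrays, with 30 values missing. The sources used here give no summarization, background or scaling method. The table holds 10928 probe sets. Names came from the platform's annotation, updated by gene identifier to R64, giving 5449 genes, each read from its brightest probe set. All 33 members had 1 probe set and no missing value. Array totals ranged from 17790552 to 18431446. The log2 array medians were less even, at 7.52 in deletion array 2 and from 7.26 to 7.35 in the others. The number of arrays limits precision.

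Intensities were quantile-normalized over all probe sets and taken as log2(intensity + 16). Both groups entered a linear model with moderated variances (limma 3.58.1, R 4.3.3) and Benjamini-Hochberg adjustment over 5449 genes. Single values were also compared by exact permutation. Alternatives were other normalizations, pseudocounts, filters, spread models, terms and left-out arrays. All members are named, with up to 8 called genes of the wider list and its chromosome X genes. That list was planned to hold none of chromosome X but held OPT1, MDE1 and ADO1. Members and lists were chosen with earlier results of these data known. The within-array comparison of gene pairs, the level bands and the naming of SER33, MTD1 and MIS1 were added after values were seen.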

Additional observations from a re-analysis of the deposited data

How the results depend on the processing

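Of the 8 called members, 5 kept their call in every alternative that tested them (MET3, STR2, MET6, SAM2 and MUP1), while MUP3 lost it in 6 and MET14 and MET31 with median centring. With that centring the SE of MET14 and MET31 was 0.095 and 0.096, against 0.048 and 0.054 in the reported fit. Of the 25 uncalled, 17 were never called. Median centring moved the median of all genes by -0.12, to -0.08. It gave 258 genes higher and 858 lower, where the reported split was 630 and 554, and 4 members lower, among them MET22 and SAM3. The median of the members was then -0.071, which is 0.01 above that of all genes, as with quantile normalization. It gave 3 of the wider list higher and 5 lower. The deposited values gave 479 genes higher and 635 lower, and the fit without both arrays numbered 3 gave 349 and 473, with 4 of the wider list higher and the same 8 members called. A filter on dim genes left 31 members, without SUL1 and MET17, and the same 8 were called. Without chromosome X genes in either the normalization or the test, 718 of 5133 genes were called (14%), 378 higher and 340 lower. The reported fit had 630 higher and 259 lower outside that chromosome, so this background split depended on including its genes. Of the 31 members then tested 5 were higher and 1 lower (SAM3), and of the wider list 6 were higher and 0 lower. MUP3 lost its call, and MET3 and STR2 were not tested. Leaving out each array gave 830 to 983 called genes, 5 to 7 members higher, 2 to 3 lower, 6 to 7 of the wider list higher and member medians of 0.03 to 0.06. The 8 called members kept their direction in every alternative that tested them. CYS4, called with the unmoderated model at 0.03, was -0.10 with median centring, and MET17, called without wild-type array 2 at 0.28, was -0.01 when S. cerevisiae probe sets alone were quantile-normalized. The causes of these changes were not tested. Deviations of same-numbered arrays from their group means correlated at -0.15, -0.03 and 0.61 for numbers 1, 2 and 3. The numbers alone thus do not pair the arrays, but the arrays numbered 3 shared a deviation that the reported fit did not model. With the replicate block 8 members were higher and 3 lower, of 1297 called genes. With the arrays numbered 3 as a term the member counts were the same. That fit called 1573 genes (28.9%), the most of any setting. Both fits added MET16, SAM3 and SUL2 to the called members.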
